A study of Homo sapiens with 12 samples.

Results

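The proteasome genes of HCT116, an established human colorectal carcinoma line, were followed through recovery from methionine restriction. Genes were taken by symbol, PSMA to PSMG followed by a digit, leaving out the interferon-inducible catalytic subunit genes PSMB8 and PSMB9. Of 18969 genes listed, 47 had such a symbol, and 45 reached 1 CPM (counts scaled to the library total) in at least 4 of the 12 libraries. PSMA8 and PSMB11, the testis and thymus forms of a ring subunit, peaked at 0.0502 and 0.0567 CPM and were left out. The symbol rule also took PSMC3IP, which encodes a cofactor of meiotic recombination and no proteasome subunit, so 44 of the 45 are proteasome genes by role. All 45 were tested.

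RNA was sequenced in 3 groups of 4 libraries. In the UNC0642 recovery group, cells were kept 24 h without methionine in the presence of UNC0642, an inhibitor of the histone H3 lysine 9 methyltransferases EHMT1 and EHMT2, and then 24 h with methionine and no inhibitor. The DMSO recovery group had the vehicle during the restriction and the same recovery. The remaining group is labelled 0 h, and its labels do not state if these cells were taken ahead of the methionine restriction or when it ended. All groups are the same cell line in medium with fetal bovine serum, and the labels do not state that replicates came from separate cultures. The p-values therefore rest on the variation among these libraries, part of which may be technical.

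The proteasome is the protease complex that degrades ubiquitin-tagged proteins. Its 20S core is a stack of alpha rings outside and beta rings inside. The alpha subunits form the gate, and PSMB5, PSMB6 and PSMB7 carry the active sites. The 19S particle caps the core with a base of ATPases that unfold the substrate and a lid that removes ubiquitin, and the PSME proteins are alternative caps. Dedicated chaperones assemble both particles, and the transcription factor NRF1, encoded by NFE2L1, raises the subunit genes together when proteasome activity is short.

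The libraries held 17882244 to 19939440 counts after UNC0642 recovery, 16181076 to 20179829 after DMSO recovery and 14658103 to 18246707 at 0 h. By how far the effective length in the files falls short of the gene length they split into classes, with 5 libraries at 101 to 106 bases and 7 at 120 to 127, and each group had both (short-gap and long-gap libraries). Of 8 epithelial markers 6 reached 1 CPM, with EPCAM at 294 to 325 CPM in all libraries, while the intestinal CDX1 was at 0 and VIL1 at most at 0.351 CPM. The epithelial markers summed to 5680 to 5850 CPM after UNC0642 recovery, 5640 to 5760 after DMSO recovery and 4810 to 4920 at 0 h. The blood markers (3 of 6 at 1 CPM) summed to 1.30 to 2.46, 1.12 to 1.87 and 1.71 to 5.43 CPM in the same groups, with PTPRC at most at 0.124 and CD3E at 0.0567 CPM. The fibroblast and endothelium markers (4 of 6) summed to 26.2 to 35.1, 25.3 to 34.8 and 19 to 38.5 CPM, mostly COL1A1, with PECAM1 at most at 0.227 and CDH5 at 0.0556 CPM. The part of these markers in the results on proteasome genes was not tested, apart from leaving out libraries by COL1A2. COL1A2 passed 1 CPM in 6 libraries (replicates 3 and 4 after UNC0642 recovery, replicate 1 after DMSO recovery and replicates 1, 2 and 3 at 0 h).

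Per length, proteasome genes were among the more abundant transcripts in every group. Averaged over the 12 libraries, the median member stood at 129.2 FPKM (fragments scaled to gene length and library size), against 10.1 FPKM for the median of all 12741 genes tested. The highest was PSMA7, an alpha ring subunit, with 393.4 ± 2.09 FPKM after UNC0642 recovery, 385.6 ± 5.65 after DMSO recovery and 423.7 ± 13.6 at 0 h (SD, n = 4 each). The lowest was PSME4, the nuclear single-chain activator, with 20.5 ± 0.319, 20.9 ± 0.424 and 20.4 ± 1.04 FPKM in the same groups.

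Levels differed within each assembly, although each alpha, beta and ATPase subunit has a single fixed place per ring. In the alpha ring the lowest, PSMA5, stood at 49.1 FPKM, and PSMA7 was 8.16 times as high. In the beta ring the mean levels ran from 64.5 FPKM for PSMB2 to 324.3 FPKM for PSMB1, a non-catalytic subunit, a ratio of 5.03. The ATPases ran from 63.2 FPKM for PSMC6 to 237.0 FPKM for PSMC5, a ratio of 3.75. The lid ran from 95.3 FPKM for PSMD7 to 167.3 FPKM for PSMD3, a ratio of 1.75. The other base subunits ran from 95.1 FPKM for PSMD1 to 206.3 FPKM for PSMD2, both large scaffold subunits. The assembly chaperones and the inhibitor stood lower, from 23.0 FPKM for PSMD9 to 80.6 FPKM for PSMG1, and the alternative caps with PSMB10 from 20.6 FPKM for PSME4 to 114.2 FPKM for PSME2. PSMA5 and PSMB2, the lowest of their rings, also had the longest gene models there, at 3824 and 4738 bases.

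**Figure D1:**
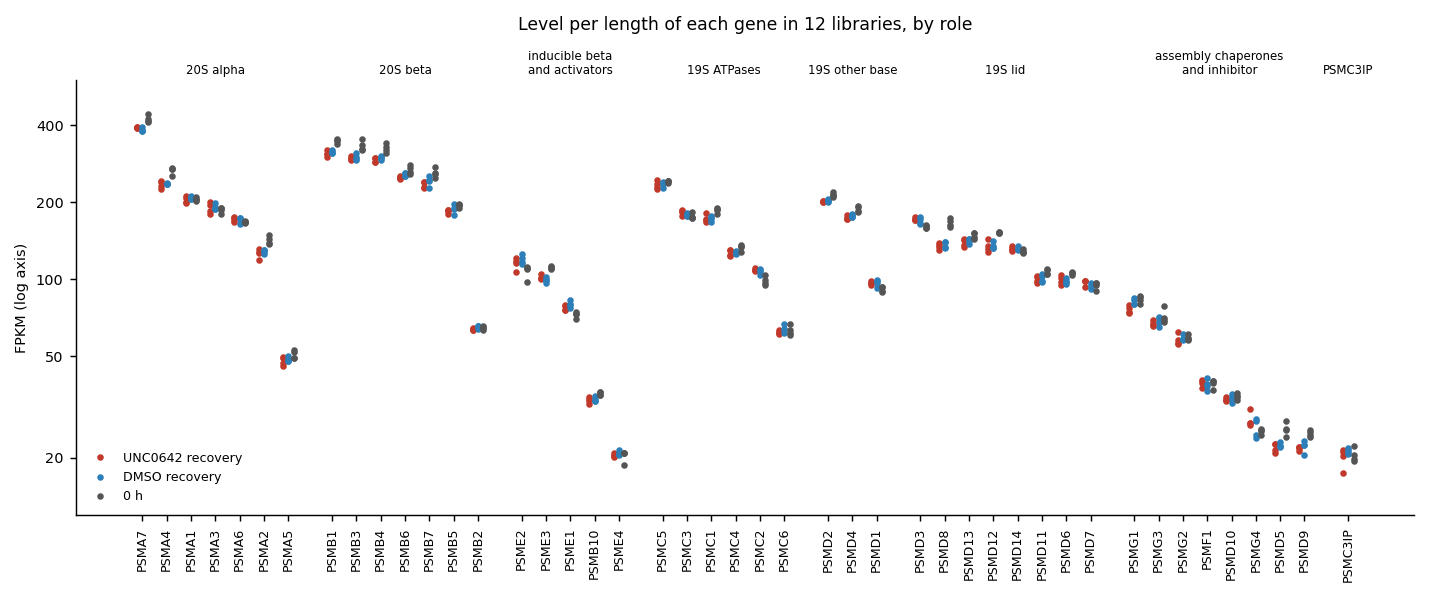
FPKM of each of the 45 genes (log axis) in the UNC0642 recovery, DMSO recovery and 0 h libraries, with 1 point per library and genes ordered by mean level within their role. PSMA7 is the highest at a mean of 400.9 FPKM and PSME4 the lowest at 20.6 FPKM, and the spread between genes is much wider than that between groups.

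NRF1 binds with small MAF proteins at antioxidant response elements, whose core can be written TGACNNNGC (N, any base). The 250 bases before the start in RefSeq (GRCh38.p14) were searched for these letters on both strands in the 39 members that had a promoter there. They were found in 12 members, which is 30.8%, against 13.2% of 27305 genes with a promoter and 15.8% of 10308 genes tested here. A match is a description of the letters, not a site. Each line gives 39 bases with the match in capitals, 5′ to 3′ on the gene's strand. PSMA4 (chr15:78540645-78540683, plus strand), PSMB3 (chr17:38752622-38752660, plus), PSMD12 (chr17:67366719-67366757, minus), PSMD5 (chr9:120843033-120843071, minus) and PSMD9 (chr12:121888673-121888711, plus) are examples from the 7 of these 12 members that were called lower in both recovery groups. PSMC5 and PSMG1 are the others, and a second match in PSMD9, on the opposite strand, is not printed. PSMD3 (chr17:39980755-39980793, plus) and PSME1 (chr14:24136093-24136131, plus) are examples from the 5 that hold the same letters and were not called, with PSME2, PSME4 and PSMG2 as the others.
PSMA4: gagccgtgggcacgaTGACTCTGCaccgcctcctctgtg
PSMB3: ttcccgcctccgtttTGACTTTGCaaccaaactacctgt
PSMD12: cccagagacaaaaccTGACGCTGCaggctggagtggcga
PSMD5: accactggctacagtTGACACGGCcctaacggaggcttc
PSMD9: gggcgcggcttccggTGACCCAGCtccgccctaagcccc
PSMD3: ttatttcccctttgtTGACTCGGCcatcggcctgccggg
PSME1: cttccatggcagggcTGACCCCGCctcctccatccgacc

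Proteasome genes were mostly lower after recovery than at 0 h, by small amounts. After UNC0642 recovery 29 of the 45 were called lower and 1 higher (adjusted p under 0.05, edgeR's quasi-likelihood test, Benjamini-Hochberg over all genes), against 23.6% of all genes called lower and 23.4% called higher. After DMSO recovery 25 were called lower and none higher, against backgrounds of 21.7% and 22.4%. DESeq2 and limma-voom likewise called none higher after DMSO recovery. In edgeR's test 27 members had an unadjusted p under 0.05 there, in either direction, as did 6501 of the 12741 genes tested. The median log2 fold change of the members was -0.13 after UNC0642 recovery and -0.10 after DMSO recovery, where the median of all genes was 0.0063 and 0.0069. These comparisons share the 0 h libraries. In bulk RNA, fewer cells of a type and less RNA per cell cannot be told apart.

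The differences were small for each gene, and they varied between genes. The log2 fold changes ran from -0.37 (PSMD8) to 0.09 (PSMG4) after UNC0642 recovery and from -0.35 (PSMD8) to 0.09 (PSME2) after DMSO recovery. No member differed by 1.5-fold in any comparison, and the largest fold was 1.29 after UNC0642 recovery and 1.28 after DMSO recovery. A fold over 1.1 was found for 22 members after UNC0642 recovery and 18 after DMSO recovery. The median absolute log2 fold change was 0.128 and 0.0996 for the members, against 0.151 and 0.144 for all genes tested. By size alone the changes of the members were thus not larger than those of genes at large. The SD of the log2 fold changes over the members was 0.103 and 0.0976, against 0.345 and 0.328 over all genes tested, which were not matched for level. Their median standard error was 0.0311 in the UNC0642 comparison, where that of all genes was 0.0595, so differences of this size were within reach of the test at the depth of these genes. The members lower without overlap of the groups numbered 28 after UNC0642 recovery and 24 after DMSO recovery, against 20.1% and 19% of all genes. In either direction the groups did not overlap for 40.2% and 38.3% of all genes, and no member was higher without overlap.

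The sum of CPM over the 44 proteasome genes, scaled with TMM factors (edgeR's correction for composition), shows the shift by library. It was 8202.6, 7919.2, 7963.9 and 8137.1 after UNC0642 recovery, 8217.3, 8023.9, 8077.6 and 8047.4 after DMSO recovery, and 8834.4, 8780.8, 8762.2 and 8846.9 at 0 h. All recovery libraries lay below all 0 h libraries, and the recovery groups overlapped. The mean differed from that at 0 h by -8.52% after UNC0642 recovery and by -8.11% after DMSO recovery. As a share of the counts as deposited, before any scaling, the genes took 0.808% to 0.832% after UNC0642 recovery, 0.814% to 0.8288% after DMSO recovery and 0.855% to 0.861% at 0 h. By role the difference of the summed CPM after UNC0642 recovery ran from -5.23% for the ATPases to -11.4% for the beta ring.

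**Figure D2:**
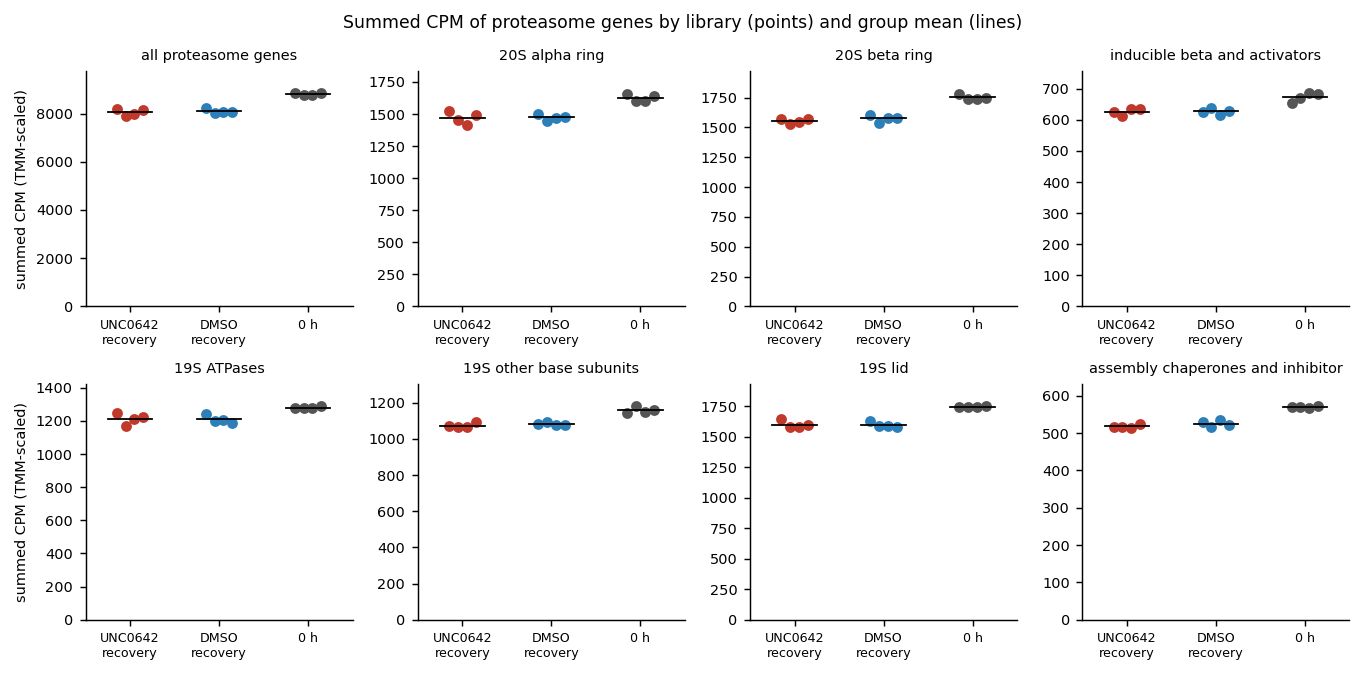
Summed TMM-scaled CPM of the 44 proteasome genes and of each role group, with UNC0642 recovery left, DMSO recovery in the middle and 0 h right, 1 point per library and a line at the group mean. The sum over all proteasome genes lies between 7919.2 and 8202.6 after UNC0642 recovery, between 8023.9 and 8217.3 after DMSO recovery and between 8762.2 and 8846.9 at 0 h.

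The constitutive beta genes were lower almost throughout. All 7 constitutive beta genes were called lower after UNC0642 recovery (median log2 fold change -0.21) and 6 of 7 after DMSO recovery (-0.18), and the remaining gene there, PSMB2, had -0.05 ± 0.02 (SE). PSMB1, a non-catalytic subunit, had 248.1, 248.8, 243.3 and 242.9 CPM after UNC0642 recovery, 252.2, 250.6, 244.6 and 246.0 after DMSO recovery, and 288.5, 286.3, 283.5 and 291.8 at 0 h. Each recovery library was below each 0 h library. The log2 fold change was -0.23 ± 0.03 after UNC0642 recovery (adjusted p = 4.66e-09) and -0.21 ± 0.03 after DMSO recovery (adjusted p = 2.31e-08).

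PSMB3, another non-catalytic beta subunit, had 191.0, 187.5, 186.4 and 189.1 CPM after UNC0642 recovery, 188.1, 186.7, 194.7 and 184.9 after DMSO recovery, and 231.3, 218.3, 214.2 and 217.8 at 0 h. Again no recovery library reached the 0 h range, and the log2 fold change was -0.23 ± 0.03 in both comparisons. Among the catalytic subunits, PSMB7, the trypsin-like one, had log2 fold changes of -0.21 ± 0.04 after UNC0642 recovery and -0.18 ± 0.04 after DMSO recovery. PSMB6, the caspase-like one, had -0.16 ± 0.03 and -0.14 ± 0.03, and PSMB5, the chymotrypsin-like one, had -0.12 ± 0.03 and -0.10 ± 0.03. PSMB4, which is not catalytic, had -0.21 ± 0.03 and -0.19 ± 0.03.

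In the alpha ring 5 of 7 genes were called lower after UNC0642 recovery (median -0.14) and 4 of 7 after DMSO recovery (-0.12). PSMA4 led with 264.3, 248.8, 243.2 and 266.0 CPM after UNC0642 recovery, 262.0, 253.3, 254.4 and 254.9 after DMSO recovery, and 306.4, 303.6, 289.9 and 309.9 at 0 h. The recovery libraries all lay below those at 0 h, with log2 fold changes of -0.24 ± 0.03 in both comparisons (adjusted p = 2.59e-08 after UNC0642 and 4.14e-08 after DMSO recovery). PSMA2 had -0.24 ± 0.03 and -0.21 ± 0.03, and PSMA7 had -0.17 ± 0.03 and -0.20 ± 0.03. PSMA3 and PSMA6 were called in neither comparison, with log2 fold changes between -0.04 and -0.03.

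The alternative caps and the inducible subunit did not move as a group. They hold 2 genes called lower in each comparison, of 5, and the median was -0.05 after UNC0642 recovery and -0.02 after DMSO recovery. PSME3, the nuclear proteasome activator that works without ATP or ubiquitin, had 305.1, 301.3, 315.5 and 308.0 CPM after UNC0642 recovery, 294.7, 307.0, 299.4 and 300.7 after DMSO recovery, and 344.1, 351.6, 353.9 and 350.0 at 0 h. Both recovery groups were lower without overlap, by -0.19 ± 0.02 (adjusted p = 1.49e-07) and -0.22 ± 0.02 (adjusted p = 6.91e-09) on the log2 scale. PSMB10, the inducible counterpart of PSMB7 in the immunoproteasome, had -0.15 ± 0.05 and -0.14 ± 0.05.

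PSME1 and PSME2, which together form the interferon-inducible 11S cap, lay above 0 h in the mean without being called. PSME1, named after its values were seen, had 66.7, 65.3, 68.6 and 69.6 CPM after UNC0642 recovery, 70.2, 69.2, 66.4 and 71.7 after DMSO recovery, and 62.8, 67.2, 67.5 and 67.3 at 0 h. The groups overlapped, and the log2 fold change was 0.03 ± 0.04 after UNC0642 recovery and 0.07 ± 0.04 after DMSO recovery. For PSME2 it was 0.05 ± 0.05 and 0.09 ± 0.05. With fold changes corrected for length and GC both genes were called higher in both comparisons, PSME1 at 0.10 and 0.14 and PSME2 at 0.14 and 0.18. These were the highest values over the 27 alternatives (other settings of the analysis). PSME1 went down to -0.03 after UNC0642 recovery and 0.03 after DMSO recovery, and PSME2 to -0.05 and -0.02.

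Of the 6 ATPases of the base, 4 were called lower and 1 higher after UNC0642 recovery, and 3 lower after DMSO recovery. PSMC1, whose yeast counterpart helps open the gate of the core, had 265.2, 241.1, 245.5 and 252.2 CPM after UNC0642 recovery, 258.4, 246.6, 256.9 and 242.6 after DMSO recovery, and 285.9, 282.0, 274.1 and 287.7 at 0 h. No recovery library overlapped with 0 h, and the log2 fold change was -0.17 ± 0.03 in both comparisons (adjusted p = 1.55e-05 after UNC0642 and 1.80e-05 after DMSO recovery). PSMC2, another ATPase of the same ring, was the single member called higher. Its CPM was 155.4, 149.9, 148.6 and 153.1 after UNC0642 recovery, 154.9, 149.5, 144.9 and 148.6 after DMSO recovery, and 137.3, 149.4, 145.2 and 141.2 at 0 h. At 0 h replicate 2 stood within the range of the UNC0642 libraries, and replicates 2 and 3 within that of the DMSO libraries. The log2 fold change was 0.08 ± 0.03 after UNC0642 recovery (adjusted p = 0.0328) and 0.06 ± 0.03 after DMSO recovery, where it was not called (adjusted p = 0.126). Its call was lost in 7 of 27 alternatives, with adjusted p between 7.22e-05 and 0.335 over all of them, and leaving out 0 h replicate 1 or 4 or UNC0642 replicate 1 or 4 each sufficed.

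Among the other base subunits PSMD2 and PSMD4 were called lower in both comparisons and PSMD1 was not called. PSMD4, a ubiquitin receptor, had 209.2, 205.6, 205.1 and 217.8 CPM after UNC0642 recovery, 213.1, 213.0, 214.0 and 209.8 after DMSO recovery, and 240.8, 238.6, 234.1 and 230.9 at 0 h. The recovery libraries all lay below 0 h, with log2 fold changes of -0.17 ± 0.03 (adjusted p = 3.09e-06) and -0.15 ± 0.03 (adjusted p = 2.45e-05). PSMD2 had -0.15 ± 0.02 and -0.14 ± 0.02. PSMD1, the other scaffold subunit, had 0.02 ± 0.03 in both.

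In the lid 5 of 8 genes were called lower in each comparison. PSMD8, the subunit that joins the lid last in yeast, had the largest fall of all members. Its CPM was 196.9, 180.9, 190.7 and 190.5 after UNC0642 recovery, 198.2, 194.2, 184.9 and 187.9 after DMSO recovery, and 253.9, 246.1, 240.2 and 237.7 at 0 h. The recovery groups overlapped with each other and lay well below 0 h, with log2 fold changes of -0.37 ± 0.03 (adjusted p = 9.50e-12) and -0.35 ± 0.03 (adjusted p = 2.65e-11). PSMD12 followed with -0.24 ± 0.03 and -0.23 ± 0.03. PSMD14, the deubiquitinating enzyme of the lid, and its partner PSMD7 were called in neither comparison, with log2 fold changes between -0.07 and -0.02, and PSMD3 had 0.04 ± 0.03 and 0.02 ± 0.03.

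Of the assembly chaperones and the inhibitor PSMF1, 4 of 8 were called lower after UNC0642 recovery and 3 of 8 after DMSO recovery. PSMD5, a chaperone of the ATPase ring, had 73.4, 66.8, 69.3 and 73.6 CPM after UNC0642 recovery, 71.9, 74.2, 72.0 and 72.2 after DMSO recovery, and 86.3, 93.8, 81.5 and 87.3 at 0 h. PSMD9, another ATPase ring chaperone, had 48.7, 46.2, 47.9 and 48.9 CPM after UNC0642 recovery, 50.04, 44.7, 51.0 and 49.3 after DMSO recovery, and 57.8, 55.0, 59.1 and 56.8 at 0 h. Both were lower after recovery without overlap. The log2 fold changes were -0.30 ± 0.04 (adjusted p = 4.09e-07) and -0.27 ± 0.04 (adjusted p = 3.97e-06) for PSMD5, and -0.25 ± 0.05 and -0.23 ± 0.05 for PSMD9. PSMD10 (gankyrin), a further chaperone of that ring, had -0.10 ± 0.04 and -0.08 ± 0.04 and was not called.

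Among the alpha ring chaperones PSMG1 was called lower in both comparisons and PSMG3 after UNC0642 recovery, while their partners PSMG2 and PSMG4 were called in neither. PSMG4 had 0.09 ± 0.07 and 0.0012 ± 0.07, with the largest standard errors of the group, at 18.5 to 19.6 CPM in the group means. PSMC3IP, which is no subunit, had -0.09 ± 0.07 and -0.01 ± 0.07 and was not called.

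**Figure D3:**
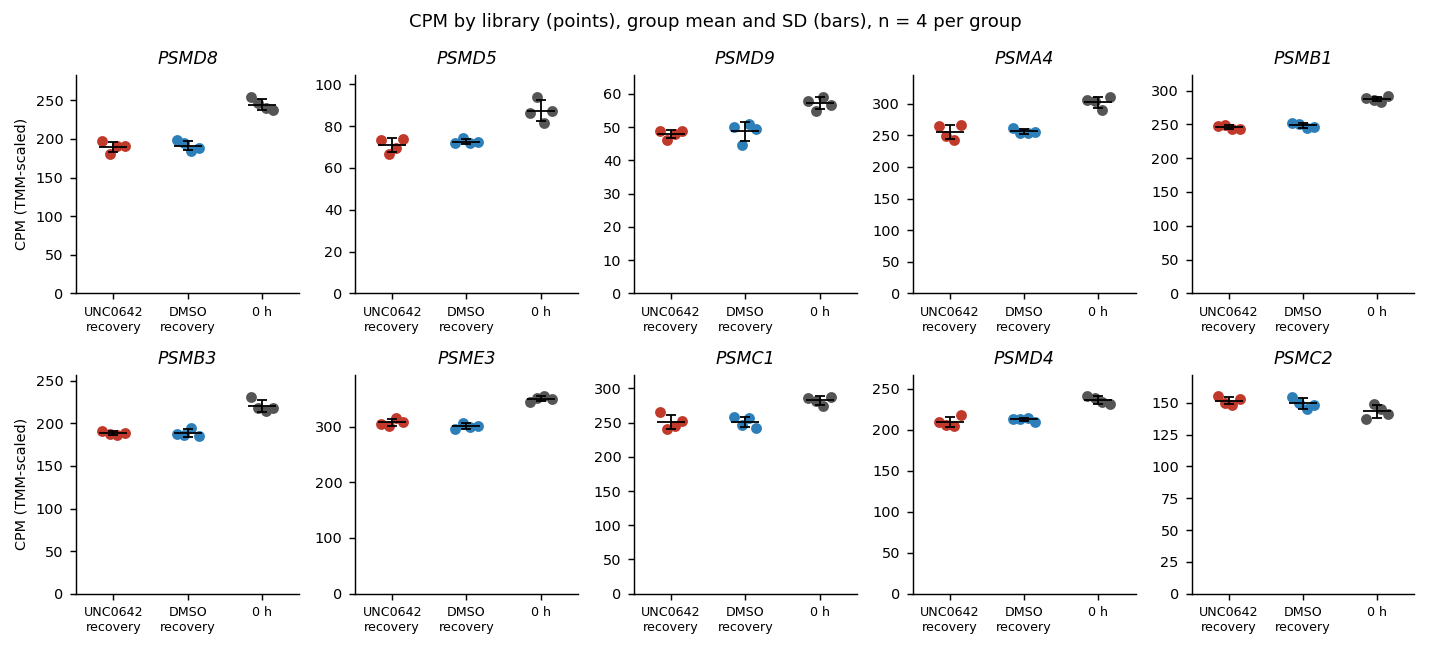
TMM-scaled CPM of PSMD8, PSMD5, PSMD9, PSMA4, PSMB1, PSMB3, PSME3, PSMC1, PSMD4 and PSMC2, with 1 point per library and bars for the mean and SD (n = 4 per group), UNC0642 recovery left, DMSO recovery in the middle and 0 h right. The recovery groups lie below 0 h without overlap in all of these genes but PSMC2, whose 0 h libraries span 137.3 to 149.4 CPM and reach into both recovery groups.

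The members called lower were largely shared. Both comparisons use the same 0 h libraries, so shared calls are likely for any genes. The shares of all genes called lower were 23.6% after UNC0642 recovery and 21.7% after DMSO recovery, and the share called lower in both is not given here. Of the 45 genes, 25 were called lower in both comparisons with 0 h, 4 (PSMA1, PSMB2, PSMC6 and PSMG3) after UNC0642 recovery alone, and 15 in neither, which with PSMC2 accounts for all. That a call was made in a single comparison does not show a difference between the recovery groups, and none of these genes passed the direct test between them.

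Between the recovery groups no member was called in either direction with edgeR's test, where 4.58% of all genes were (2.06% higher and 2.53% lower). DESeq2 and limma-voom also called none. In edgeR's test 1 member, PSMG1, had an unadjusted p under 0.05, where 2188 of the 12741 genes tested did. The adjusted p of PSMG1 was 0.137 in that test. The median log2 fold change was -0.015 for the members and -0.0012 for all genes, and it was 0.0045 for the members when the 6 libraries with COL1A2 above 1 CPM were left out. The SD over the members was 0.0318 and that over all genes, not matched for level, 0.210. The 95% interval of the difference lay within 1.1-fold either way for 42 of 45 members, and it reached furthest for PSMC3IP (-0.21 at the low end) and PSMG4 (0.23 at the high end). PSMG1, named after its values were seen, had 74.6, 75.7, 78.3 and 75.4 CPM after UNC0642 recovery, 85.6, 81.6, 78.9 and 79.3 after DMSO recovery, and 88.8, 87.9, 86.6 and 84.5 at 0 h. Its UNC0642 libraries lay below all DMSO libraries, which held for no other member, against 5.42% of all genes lower and 5.05% higher without overlap. Its log2 fold change was -0.10 ± 0.04, and the interval of the log2 difference was -0.17 to -0.02.

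**Figure D4:**
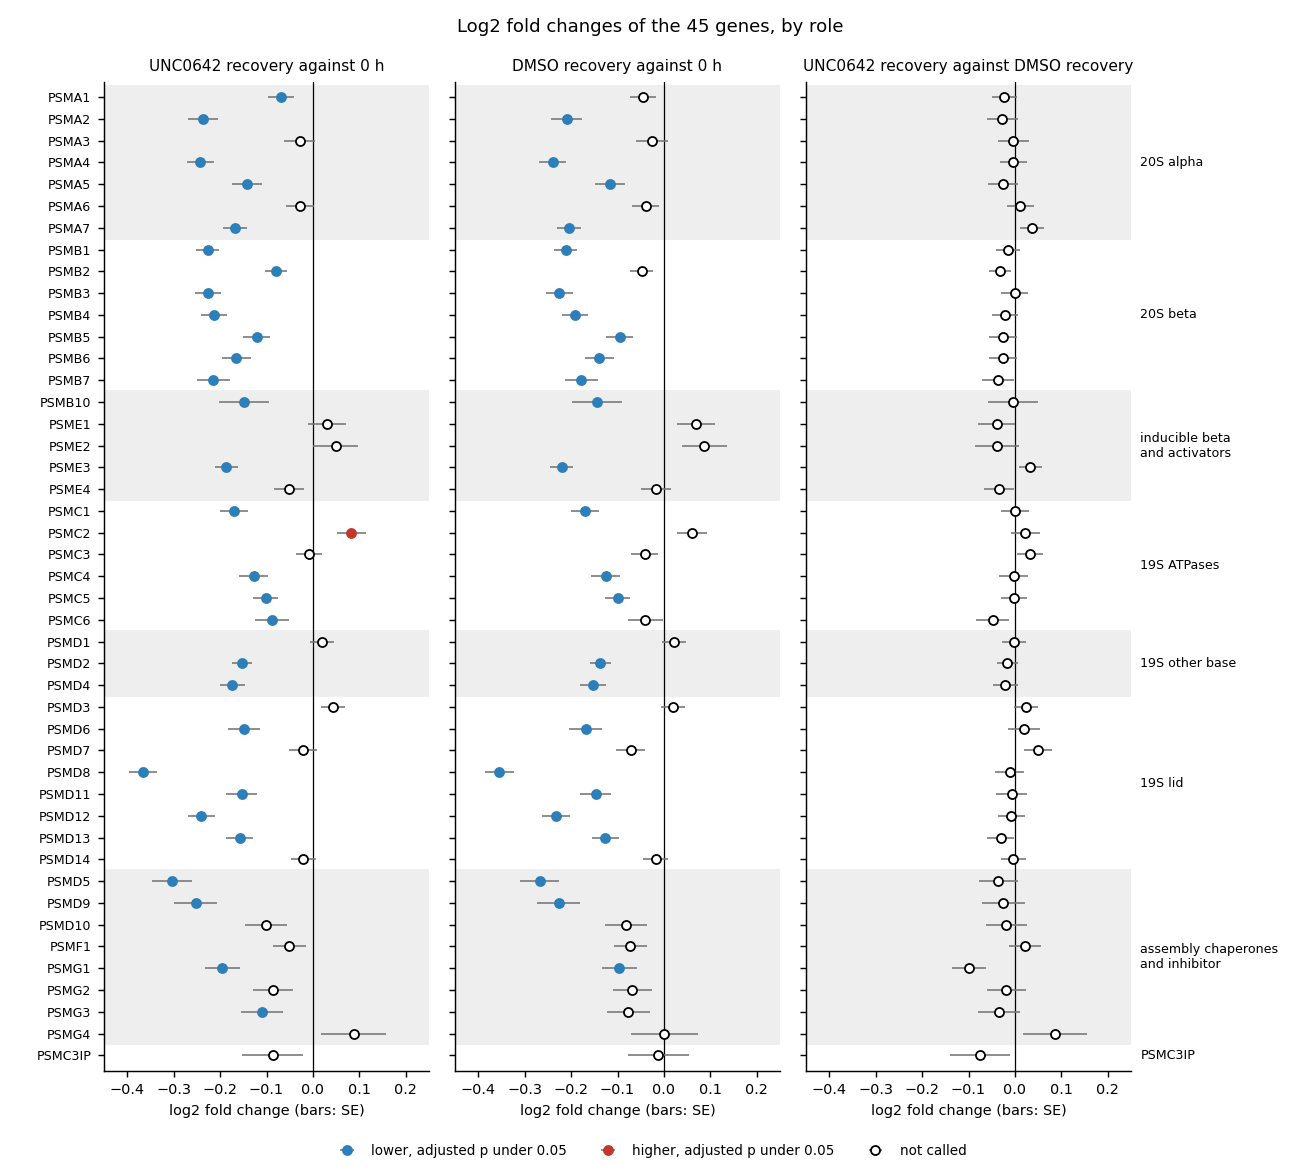
Log2 fold changes (points) with standard errors (bars) of the 45 genes by role, for UNC0642 recovery against 0 h, DMSO recovery against 0 h and UNC0642 recovery against DMSO recovery. Filled points are called, with 29 lower and 1 higher in the first panel, 25 lower in the second and none in the third.

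The share of members lower was set beside that of genes of like length, because fold changes increased with gene length over all genes (Spearman's rho 0.16 after UNC0642 and 0.205 after DMSO recovery over 12741 genes, given as a description) and members are short, with a median of 1434 bases against 2946. Under 1200 bases, 9 of 15 members were called lower after UNC0642 recovery, against 38.6% of 1167 genes of that length. From 1200 to 2000 bases it was 14 of 20 members, against 26.4% of 2296 genes, and over 2000 bases 6 of 10 members, against 21% of 9278 genes. After DMSO recovery the same length classes held 8, 12 and 5 members called lower, against 37.6%, 27% and 18.4% of genes. Among the members themselves the fold change and length had a rho of 0.031 and 0.011 (n = 45, from shared libraries).

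**Figure D5:**
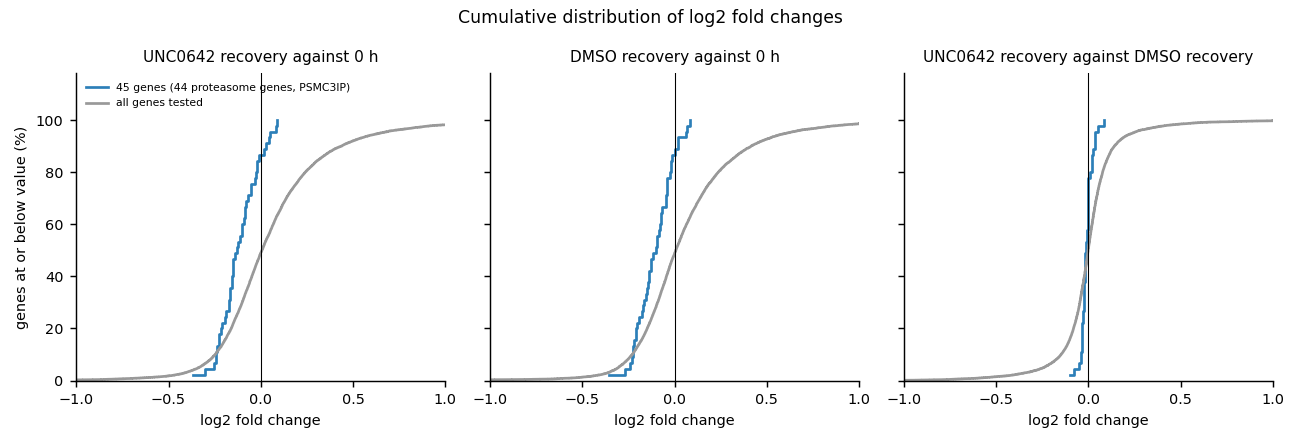
Cumulative share of genes (percent) at or below each log2 fold change, for the 45 genes and for all 12741 genes tested in the same comparisons, with the x axis limited to -1 to 1. The curve of the 45 genes is steeper than that of all genes and lies left of it over most of its height in both comparisons with 0 h, with medians of -0.13 and -0.10, and close to 0 between the recovery groups.

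The counts of calls were set beside those under other scalings. With library totals in place of TMM factors, 21 members were called lower and 3 higher after UNC0642 recovery, and 19 lower and 5 higher after DMSO recovery. Over all genes that setting called 4071 higher and 1960 lower after UNC0642 recovery, where the main test called 2983 and 3007. For DMSO recovery it called 3823 higher and 1843 lower, where the main test called 2851 and 2766. With log2 FPKM the members gave 23 lower and 5 higher, and 19 lower and 5 higher. Of all genes that setting called 3873 higher and 1885 lower after UNC0642 recovery, and 3684 higher and 1698 lower after DMSO recovery. The median of the members was below 0 in both comparisons under each of the 27 alternatives, and no called member changed sign. Its size depended on the scaling, as did the median of all genes. After UNC0642 recovery the members had -0.13 in the main test (all genes 0.0063) and -0.07 with library totals (0.0656). They had -0.08 both with log2 FPKM (all genes 0.05) and with the length and GC correction (-0.0014). After DMSO recovery the members had -0.10 in the main test (all genes 0.0069) and -0.05 with library totals (0.0601). They had -0.06 with log2 FPKM (all genes 0.0507) and -0.08 with the length and GC correction (-0.0026). Library totals and log2 FPKM thus raised both medians, and the length and GC correction raised that of the members alone.

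The length-gap classes were also compared alone. Among the libraries of long gap 27 members were called lower after UNC0642 recovery and 24 after DMSO recovery, where 2260 and 2345 of all 13274 genes tested were. The short-gap libraries hold 1 DMSO library, assumed to vary like the others. There the median log2 fold change of the members was -0.10 after UNC0642 recovery and -0.07 after DMSO recovery (all genes 0 and 0.0024). Leaving out the libraries with COL1A2 above 1 CPM leaves 1 library at 0 h, assumed to vary like the others. The median of the members was then -0.16 and -0.13 (all genes 0.0045 and 0.0065). Of the 30 calls after UNC0642 recovery 18 held in every alternative, as did 12 of the 25 after DMSO recovery. The calls of PSMC6, PSMA1 and PSMG3 after UNC0642 recovery (lost in 20, 16 and 13 alternatives) and of PSMG1 and PSMB10 after DMSO recovery (13 and 10) were the least stable. Pseudogenes named after 12 of the members are annotated, 13 of them for PSMC1, and reads shared with such copies make those levels uncertain.

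Members with and without the letters TGACNNNGC before their start were set side by side, with no test of the difference. After UNC0642 recovery 7 of these 12 were called lower (median log2 fold change -0.15), and 16 of the 27 without them (-0.10). After DMSO recovery it was 7 of 12 (-0.10) and 13 of 27 (-0.08). The lists hold genes on both sides, such as PSMD5 and PSMD12 among those lower and PSMD3 and PSME1 among those not called.

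Some genes that control NRF1 were called lower. Of 13 genes, 7 were called lower and none higher after UNC0642 recovery (median -0.11), and 3 lower after DMSO recovery (-0.06). The shares of all genes called lower were 23.6% and 21.7%, so the count after DMSO recovery was near the background. Over the alternatives 1 to 9 and 2 to 9 of these genes were called lower. NFE2L1 itself had 269.3, 260.2, 261.5 and 267.6 CPM after UNC0642 recovery, 244.7, 253.4, 245.8 and 249.7 after DMSO recovery, and 282.1, 284.6, 290.7 and 288.0 at 0 h. The 3 groups did not overlap. Against 0 h it changed by -0.11 ± 0.03 after UNC0642 recovery (adjusted p = 0.000375) and by -0.21 ± 0.03 after DMSO recovery (adjusted p = 5.26e-08). The call after UNC0642 recovery was lost with library totals and with log2 FPKM, with values down to -0.05 and adjusted p up to 0.0710, and that after DMSO recovery was kept in all 27 alternatives. Between the recovery groups it was higher with UNC0642 by 0.09 ± 0.03 (adjusted p = 0.0269), a call lost in 8 of 27 alternatives, with adjusted p up to 0.398. MAFF, a small MAF partner, was lower by -0.27 ± 0.06 (a call lost in 2 alternatives) and -0.46 ± 0.06, and DDI2, the protease that activates NRF1, by -0.20 ± 0.06 after UNC0642 recovery, a call lost in 4 alternatives. OGT, the enzyme that adds O-GlcNAc to NRF1 among many proteins, was lower after UNC0642 recovery by -0.16 ± 0.03 against 0 h and by -0.12 ± 0.03 against DMSO (adjusted p = 0.0454, lost in 17 alternatives).

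Most genes for ubiquitin were lower as well. Of 6 genes for ubiquitin and its activating enzymes 4 were called lower after UNC0642 recovery (median -0.27) and 5 after DMSO recovery (-0.215). Of all genes, 23.6% and 21.7% were called lower in these comparisons. Over the alternatives 3 to 5 and 4 to 6 of the 6 were called lower, and up to 1 was called higher after UNC0642 recovery. UBB, a polyubiquitin gene, had 907.2, 871.8, 871.5 and 895.7 CPM after UNC0642 recovery, 1032, 998.0, 1004 and 991.6 after DMSO recovery, and 1250, 1204, 1232 and 1240 at 0 h. The groups did not overlap. Its log2 fold change was -0.47 ± 0.02 after UNC0642 recovery, -0.29 ± 0.02 after DMSO recovery and -0.18 ± 0.02 between them (adjusted p = 1.22e-07), and these calls held in all 27 alternatives. Ubiquitin genes are nearly the same in their ubiquitin repeats, so how reads were divided between them is uncertain. RPS27A, which encodes ubiquitin fused to a ribosomal protein, had -0.31 ± 0.03 after UNC0642 recovery and -0.22 ± 0.03 after DMSO recovery.

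Proteasome-associated proteins and p97 cofactors had calls in both directions, where 23.6% and 21.7% of all genes were called lower and 23.4% and 22.4% higher. Of 11 associated factors 3 were called lower and 2 higher after UNC0642 recovery and 4 lower and 1 higher after DMSO recovery, with 1 to 4 and 0 to 5 lower over the alternatives. The counts after UNC0642 recovery were near the background. POMP, which matures the core, had -0.15 ± 0.03 and -0.12 ± 0.03, while UCHL5, a deubiquitinating enzyme of the 19S particle, was higher by 0.25 ± 0.04 and 0.23 ± 0.04. The calls of POMP were lost in 1 and 4 alternatives, with values down to -0.07 and -0.05, and those of UCHL5 in 1 and 2, with values down to 0.14 and 0.12. SHFM1, a small lid subunit, had -0.14 ± 0.04 and -0.16 ± 0.04, but its calls were each lost in 3 alternatives, length and GC among them, and its value ran from -0.24 to 0.02 over the alternatives after UNC0642 recovery. Of 12 cofactors and shuttle genes 5 were called lower in each comparison, with 1 higher after UNC0642 recovery and 2 after DMSO recovery (2 to 6 and 3 to 6 lower over the alternatives). The shuttle gene RAD23B was lower by -0.37 ± 0.02 in both.

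Most immunoproteasome partners were higher after recovery. Of 8 tested genes 7 were called higher and none lower in each comparison with 0 h, with medians of 0.41 after UNC0642 recovery and 0.34 after DMSO recovery. The shares of all genes called higher were 23.4% and 22.4%. PSMB9, the inducible counterpart of PSMB6, was low, at 6.37, 6.82, 6.45 and 6.11 CPM (unscaled) after UNC0642 recovery, 3.62, 4.88, 5.27 and 4.71 after DMSO recovery, and 2.71, 2.85, 1.90 and 2.66 at 0 h. The groups did not overlap, and the log2 fold change was 1.28 ± 0.15 after UNC0642 recovery, 0.80 ± 0.16 after DMSO recovery and 0.47 ± 0.13 between them (adjusted p = 0.0339, lost in 10 of 27 alternatives, up to 0.260). PSMB8 stayed at 0.694 CPM or below in every library and was not tested. The peptide transporter gene TAP1 had 0.48 ± 0.05 and 0.39 ± 0.05, and TAPBP, which loads peptides, had 0.41 ± 0.04 and 0.50 ± 0.04. Of the members named above that belong to the same inducible system, PSME1 and PSME2 were not called by edgeR's test, and PSMB10 was called lower in both comparisons.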

How the data were processed

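Total RNA was sequenced in 12 libraries in 3 groups of 4, grouped by sample title. Per the file headers, the deposited files give expected counts (estimates that need not be whole), FPKM, TPM, length and effective length per gene. The TPM values deposited by the authors were not used. RSEM 1.2.4, Bowtie and hg18 come from the submitters' processing notes, and whether strand was kept is not given in the sources used here. Overlapping and antisense genes are therefore uncertain.

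Deposited expected counts were rounded and genes kept by filterByExpr (12741 of 18969). The quasi-likelihood test of edgeR 4.0.16 (R 4.3.3) was run with all 12 libraries in 1 fit and TMM factors of 0.973 to 1.02, two-sided, with Benjamini-Hochberg adjustment over all genes and calls at an adjusted p under 0.05. The biological coefficient of variation was 3.44%. Adjusted p in the text are from this test unless another is named. CPM are TMM-scaled and given by library, except that CPM of markers, of the choice of members and of PSMB8 and PSMB9 are unscaled. FPKM means have SD over 4 libraries and log2 fold changes have SE. Counting error is covered by the fit. No library was a copy of another: over 18 within-group pairs, chi-square divided by its degrees of freedom was 2.03 to 3.57. The test was tried on simulated counts, but the outcome is not reported here and no error rate is claimed from it.

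The deposited FPKM served for levels between genes and, as log2(FPKM + 1), for 1 alternative in limma 3.58.1. Alternatives, 27 in all, covered scaling, filters, gene length and GC content (known for 98.9% of genes), replicate block, limma-voom, DESeq2 1.42.0, length-gap class and each library left out.

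Members, lists, length classes and the rule for named genes were chosen with earlier results of these data known. CPM by library is given for called members with the 3 largest rises or falls per comparison, the largest change of each role, or a direction against their role. From the pathway lists, genes are named among the 4 of smallest p per list and comparison, and some of these are not reported here. Promoters are RefSeq's (GRCh38.p14), matched by symbol for 39 of 45 members, and were not joined to hg18 coordinates.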

Additional observations from a re-analysis of the deposited data

Results flagged for a closer look

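Of 135 groups of 4 libraries examined (45 genes in 3 groups), 6 held a library far from the other 3 by Dixon's criterion, which chance meets in about 1 in 20 groups. The library of 0 h replicate 1 was low for 3 genes. PSMB5 had 226.5 CPM there, where the other 0 h libraries had 235.4 to 236.2. PSME4 had 134.8 CPM there, against 149.6 to 150.0 in the others. PSME1 had 62.8 CPM there, against 67.2 to 67.5. After DMSO recovery, PSMC3 had 266.6 CPM in replicate 1 (others 255.7 to 256.2), PSMD5 had 74.2 CPM in replicate 2 (others 71.9 to 72.2) and PSMD14 had 212.6 CPM in replicate 4 (others 206.8 to 207.7).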

How the results depend on the processing

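Lower calls after UNC0642 recovery (29) and after DMSO recovery (25) stayed within 1.5 times under all 27 alternatives but 1, the short-gap libraries alone after DMSO recovery (13, with 1 DMSO library). The few higher calls moved with the scaling and the libraries used. After UNC0642 recovery (1) they numbered 3 with library totals only, 6 with the length and GC correction and 5 with log2 FPKM, and 0 in the long-gap libraries alone, in the short-gap libraries alone and without the libraries with COL1A2 above 1 CPM. After DMSO recovery (0) they numbered 5, 3 and 5 with those scalings and 1 with length-gap class as a covariate. Leaving out 1 library at a time gave 0 to 1 higher and 26 to 29 lower after UNC0642 recovery, and 22 to 25 lower after DMSO recovery. Between the recovery groups no alternative called a member, and the median, -0.015, was 0.0045 without the COL1A2 libraries. The cause of these differences was not tested.

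Libraries of equal replicate number were not more alike in their deviations than others: over 12 such pairs the correlation was -0.103 to 0.045. For pairs of unequal number it was -0.132 to 0.117. These values cannot show if libraries of equal number were cultured or handled together. With the replicate block, 29 members were lower and 1 higher after UNC0642 recovery, 25 lower and 0 higher after DMSO recovery, and 0 called between the recovery groups. Single genes at this depth were resolved to a median SE of 0.0311 (log2).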

Other observations

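The COP9 signalosome, a complex related to the proteasome lid that removes NEDD8 from cullin ligases, had calls in both directions. Of 9 genes 4 were called lower and 1 higher after UNC0642 recovery (median log2 fold change -0.11), and 6 lower and 1 higher after DMSO recovery (-0.12), where 23.6% and 21.7% of all genes were called lower and 23.4% and 22.4% higher. Over the alternatives 1 to 7 and 2 to 6 of these genes were lower, which at the low end is below or near those shares. COPS2, a scaffold subunit, had -0.22 ± 0.04 and -0.21 ± 0.04, and COPS8 was higher by 0.18 ± 0.05 and 0.24 ± 0.05.

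Genes that rise when the proteasome is inhibited had calls in both directions. Of 9 genes 2 were called higher and 1 lower after UNC0642 recovery, and 3 higher and 3 lower after DMSO recovery. Of all genes, 23.4% and 22.4% were called higher and 23.6% and 21.7% lower in these comparisons. The count called higher after UNC0642 recovery was near that background. SQSTM1, an autophagy receptor for ubiquitinated proteins, was higher by 0.29 ± 0.03 in both comparisons, and the co-chaperone gene BAG3 by 0.33 ± 0.03 and 0.32 ± 0.03, in all 27 alternatives. The heat shock co-chaperone DNAJB1 was lower by -0.08 ± 0.03 and -0.11 ± 0.03, calls lost in 4 and 2 alternatives, library totals only and log2 FPKM among them in both.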
